A study of Mus musculus with 16 samples.

Results

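The synthesis of chondroitin sulfate in mouse intervertebral discs was followed through 10 genes: Xylt1, Csgalnact1, Chsy1, Chsy3, Chpf, Chst3, Chst11, Papss2, Slc26a2 and Ugdh. They were chosen by gene name from the deposited table. All 10 were present, each in 1 row, among 49315 genes, and all 10 were among the 24188 genes kept for testing (at or above 1 TPM in 3 or more libraries). TPM is a transcript level scaled by gene length and by the library total, so levels of different genes can be set side by side. Bulk RNA sequencing had been done on discs of 16 mice, with 4 tail discs pooled per mouse, so each library stood for 1 animal. The groups were 3 wild-type mice with intact discs, 4 wild-type mice with injured discs, 4 Adam8EQ mutant mice with intact discs and 5 Adam8EQ mutant mice with injured discs. The series title names DBA, an inbred strain, as the comparison to the mutant. Adam8 codes for a metalloprotease of the cell surface. Nothing further on the EQ allele is in the labels. Age, sex, the way of injury, the time after it and how many of the pooled discs were injured are not given in the labels used here.

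Chondroitin sulfate is a long, sulfated sugar chain carried by proteoglycans such as aggrecan, and its negative charge holds water in cartilage and in the disc. A chain is started on the core protein by xylose and a short linkage region, is committed to chondroitin by a first N-acetylgalactosamine, and is then lengthened by alternating glucuronic acid and N-acetylgalactosamine. Sulfotransferases decorate it with sulfate from the donor PAPS, and the supply of sulfate and of UDP-glucuronic acid feeds the whole route. Loss of several of these enzymes or transporters is known to cause skeletal dysplasia.

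With injury, 2 of the 10 genes passed the test in mutants and 0 in the wild type, where 30.8% and 0.116% of all tested genes passed, and the test of the difference between the genotypes' responses did not pass for any of the 10. The 2 were Chsy1, a chain polymerase, and Ugdh, the enzyme that makes UDP-glucuronic acid, both higher in injured discs. Of all tested genes, 13.1% were called higher in injured mutants, and the 2 of 10 were not tested against this share. The stretches of sequence just before the starts of Chsy1 and Ugdh are shown only because these 2 passed. They come from the RefSeq promoter table on GRCm38.p6, read on the strand of the gene and limited to bases before both the RefSeq and the GENCODE start. Capitals mark ACGTG, the core of the hypoxia response element, and GGGCGG, the GC box, on either strand.
Chsy1 (chr7:66109242-66109491, plus strand): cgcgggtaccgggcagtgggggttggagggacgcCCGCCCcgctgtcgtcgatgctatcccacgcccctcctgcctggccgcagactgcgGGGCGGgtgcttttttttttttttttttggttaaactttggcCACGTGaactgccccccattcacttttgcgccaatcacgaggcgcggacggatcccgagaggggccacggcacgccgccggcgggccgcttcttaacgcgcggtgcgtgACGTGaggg
Ugdh (chr5:65435950-65436092, minus strand): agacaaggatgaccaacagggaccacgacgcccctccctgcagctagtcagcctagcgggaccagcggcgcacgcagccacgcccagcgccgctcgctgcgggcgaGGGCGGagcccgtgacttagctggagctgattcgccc

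The Chsy1 stretch of 250 bases held ACGTG at 2 places, one of them inside the palindrome CACGTG, and the GC box at 2 places. The Ugdh stretch of 143 bases held the GC box at 1 place and no ACGTG. RefSeq windows of 300 bases around the start (250 before and 50 after) were on hand for 6 of the 10 genes, 7 windows in all because Papss2 had 2. GGGCGG was found in 6 of the 7 windows, 1 for each gene, against 35.7% of all 32851 windows. These 6 windows were 65.3% to 71.7% G and C, against a median of 52.7% over all windows, and the Papss2 window without the GC box was 44.3%. ACGTG was found in windows of Chsy1, Chst11 and Papss2, against 19.6% of all windows. ACAAAG, the core bound by SOX factors, was found in that of Chst3, against 18.7%, and the NF-kappaB motif in 1 window of Papss2, against 4.51%. TGANTCA, bound by AP-1, and TTCNNNGAA, bound by STAT factors, were in none of the 7 windows and in 7.81% and 8.30% of all. Every motif was searched on both strands, and none of these matches is evidence of binding.

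The libraries were checked as disc tissue before the genes were compared. Markers of chondrocytes (8 of 8 tested) summed to 4944 to 19479 TPM. Markers of the notochordal nucleus pulposus (6 of 8 tested) summed to 7025 to 15816 TPM in intact and 582 to 11134 TPM in injured discs, with the transcription factor T at a median of 2027 TPM and Noto at 0 to 0.785 TPM. The 7025 TPM was that of intact mutant mouse 3, and the next lowest intact library, mutant mouse 4, was at 13393 TPM. Macrophage markers (7 of 7 tested, none at 0 in every library) summed to 143 to 167 TPM in intact wild-type, 145 to 206 in intact mutant, 200 to 1538 in injured wild-type and 469 to 2678 in injured mutant discs. The injured wild-type mice were uneven: mice 1 and 2 lay at 200 and 238 TPM of macrophage markers and mice 3 and 4 at 1538 and 907. Fibroblast and tendon markers (7 of 7 tested) followed the same split, at 1403 and 1552 TPM in mice 1 and 2 and 8557 and 2853 TPM in mice 3 and 4, against 919 to 1292 in intact wild-type discs. They summed to 1017 to 1669 TPM in intact and 1029 to 3331 TPM in injured mutants, where 3 of the 7 genes were called higher and 3 lower. Endothelial markers (6 of 6 tested) were at 183 and 59.6 TPM in wild-type mice 3 and 4 and at most 16.9 TPM in intact discs, with 9.78 to 63.7 TPM in injured mutants. Injured mutant mouse 2 had the lowest chondrocyte sum (4944 TPM) and the highest macrophage sum (2678 TPM) and neutrophil sum (664 TPM) of all 16 libraries, although the neutrophil genes Ly6g and Mpo did not exceed 1.56 and 0.430 TPM anywhere. In bulk tissue, fewer cells of a type and less RNA per cell cannot be told apart. Adam8 itself was at 0.956 to 2.97 TPM in intact, 3.52 to 66.3 in injured wild-type and 16.2 to 264 TPM in injured mutant discs, a level that does not check the EQ allele. The part of cell makeup in the values below was not tested.

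In intact discs the 10 genes covered a wide range of levels. Xylt1, the xylosyltransferase that starts the chain, was the highest at 574 TPM on average over the 7 intact libraries (491 to 655). Chst11, the chondroitin 4-O-sulfotransferase, followed at 161 TPM (132 to 188), then Papss2, which makes PAPS, at 142 TPM (111 to 207), and Csgalnact1, which adds the first N-acetylgalactosamine, at 123 TPM (84.9 to 144). The ranges of these last 3 overlapped. Chsy3 stood at 86.8 TPM, Ugdh at 83.4, Chst3 at 72.3, and the sulfate transporter Slc26a2 at 67.0, with ranges that also overlapped. Chpf and Chsy1 were lowest at 38.3 TPM (32.6 to 44.2) and 33.8 TPM (29.6 to 42.2). The plot of levels by mouse shows all 160 values.

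**Figure D1:**
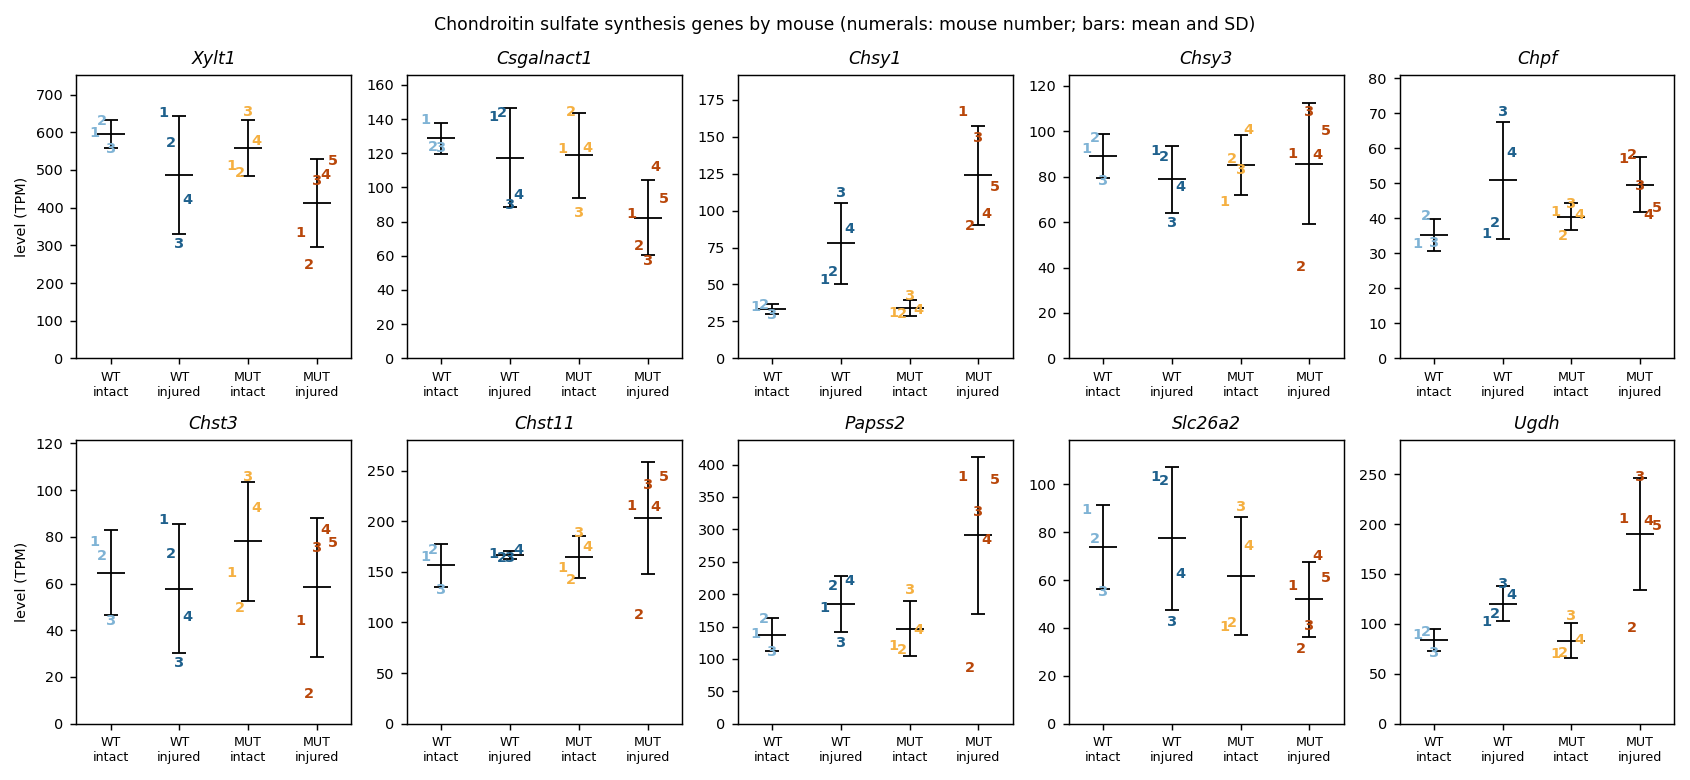
Level in TPM (vertical axes, each starting at 0) of the 10 genes in the 4 groups. Each numeral is 1 mouse, by its number in its group, and the bars give the group mean and SD (n = 3 wild-type intact, 4 wild-type injured, 4 mutant intact, 5 mutant injured). For Chsy1 every injured mouse, from 53.3 TPM upward, lies above every intact mouse, at most 42.2 TPM, and injured mutant mouse 2 is the lowest of its group in 8 of the panels.

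Which of these genes responded to injury was asked in each genotype. In mutants 2 of 10 passed an adjusted p of 0.05 (limma, Benjamini-Hochberg over all tested genes), both higher in injured discs. Over all tested genes 30.8% were called in mutants, 13.1% higher and 17.7% lower, and the 2 of 10 were not tested against these shares. The median change of the 10 genes was 0.10 on the log2 scale, against -0.08 for all tested genes. Among wild-type mice 0 of 10 passed by limma, where 0.116% of all genes were called, and 2 of 10 had an unadjusted p under 0.05, against 17.2% of all genes. The wild-type median was 0.05, against 0.01 for all genes. Changes are differences of mean log2(TPM + 1).

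Chain initiation came first in the route. Xylt1 (chromosome 7, GRCm38, 117380979 to 117673580, plus strand) lay at 597, 631 and 556 TPM in intact wild-type mice 1 to 3 and at 511, 491, 655 and 577 TPM in intact mutants 1 to 4. Injured wild-type mice 1 to 4 gave 652, 571, 303 and 420 TPM, and injured mutants 1 to 5 gave 331, 248, 470.1, 487 and 524 TPM. Wild-type mice 1 and 2 stayed within the intact range, whereas mice 3 and 4 and mutants 1 to 4 lay below it. The difference was -0.48 ± 0.25 in mutants (SE, adjusted p = 0.1352 by limma) and -0.35 ± 0.29 in the wild type (SE, adjusted p = 0.5102 by limma), and neither passed. The second xylosyltransferase, Xylt2, was far lower, at 18.7 ± 3.72 TPM in intact wild-type discs (SD, n = 3), and differed by -0.08 ± 0.26 with injury in mutants (SE, adjusted p = 0.8308 by limma).

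Csgalnact1 (chromosome 8, 68356781 to 68735146, minus strand) gave 139, 124 and 123 TPM in intact wild-type mice and 123, 144, 84.9 and 123 TPM in intact mutants. In injured discs it gave 141, 144, 89.7 and 95.4 TPM in the wild type and 84.7, 65.5, 57.0, 112 and 92.9 TPM in mutants. Intact mutant mouse 3 was the lowest intact library and lay inside the injured range, so the mutant groups overlapped. The difference in mutants, -0.54 ± 0.22 (SE, adjusted p = 0.05992 by limma), did not pass, but it passed at -0.69 without intact mutant 3 (adjusted p = 0.02601 by limma) and at -0.66 without injured mutant 4 (adjusted p = 0.02427 by limma). Within the mutant libraries whose names begin with A8 it was -0.83 and passed (adjusted p = 0.04907 by limma), and within those beginning with M it was -0.28 and did not. With wild-type mice it was -0.16 ± 0.25 (SE, adjusted p = 0.7472 by limma). Its isoenzyme Csgalnact2 stood higher, at 241 ± 39.8 TPM in intact wild-type discs (SD, n = 3), and differed by -0.43 ± 0.28 with injury in mutants (SE, adjusted p = 0.2201 by limma).

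Of the 3 chain polymerase genes, 1 passed. Chsy1 (chromosome 7, 66109515 to 66173798, plus strand) encodes a bifunctional enzyme that adds both sugars of the repeat. It lay at 34.6, 36.1 and 29.6 TPM in intact wild-type mice and 30.9, 30.3, 42.2 and 32.7 TPM in intact mutants. Injured wild-type mice gave 53.3, 58.3, 112 and 87.9 TPM, and injured mutants gave 167, 89.5, 149, 97.7 and 116 TPM. All 9 injured libraries were above all 7 intact ones. Of all tested genes, 12% had all injured libraries above all intact ones within mutants, and 9.22% within the wild type. The share over both genotypes together was not computed. Chsy1 rose by 1.80 ± 0.24 in mutants (SE, adjusted p = 0.0002778 by limma). Among wild-type mice the difference was 1.13 ± 0.27 (SE, adjusted p = 0.1009 by limma) and did not pass, but without injured wild-type mouse 1 it was 1.29 and passed (adjusted p = 0.03234 by limma). The mutant libraries carry names of 2 styles, beginning with M or A8, and the labels do not say whether these mark a batch. Within the M libraries the change was 1.65, and within those named A8 it was 1.96, and both passed (adjusted p of 0.02413 and 0.01828 by limma). The overlapping antisense gene Gm26827 is listed at 0 in every library.

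Chsy3 (chromosome 18, 59175401 to 59535999, plus strand), the related polymerase, lay at 78.1 to 96.9 TPM in intact wild-type and 68.9 to 101 TPM in intact mutant discs. Injured libraries ranged from 59.6 to 91.4 TPM in the wild type and from 40.4 to 109 TPM in mutants. Its injury difference was -0.05 ± 0.25 in mutants (SE, adjusted p = 0.8912 by limma) and -0.19 ± 0.29 in the wild type (SE, adjusted p = 0.7392 by limma), and the mutant sign turned to 0.04 with median-of-ratios scaling. Chpf (chromosome 1, 75474569 to 75479307, minus strand), which works together with the polymerases, ranged from 32.6 to 44.2 TPM in intact discs. It was 35.4, 38.8, 70.5 and 58.6 TPM in injured wild-type mice and 56.8, 58.1, 49.2, 41.05 and 43.1 TPM in injured mutants. Here wild-type mice 3 and 4 and mutants 1, 2 and 3 were above the intact range and the other 4 injured libraries within it. The difference was 0.46 ± 0.22 in the wild type (SE, adjusted p = 0.2706 by limma) and 0.28 ± 0.19 in mutants (SE, adjusted p = 0.2594 by limma). Its paralogue Chpf2 differed by -0.03 ± 0.15 in mutants (SE, adjusted p = 0.9109 by limma).

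Chsy1 and Chsy3 are related enzymes, and their balance was also taken within each library. Chsy1 made up 27.3% ± 0.182 of the summed TPM of the pair in intact wild-type discs (SD, n = 3) and 28.7% ± 4.33 in intact mutants (SD, n = 4). In injured discs the share was 48.9% ± 13.2 in the wild type (SD, n = 4) and 59.5% ± 7.22 in mutants (SD, n = 5). The lowest injured library, wild-type mouse 1, stood at 36.8%, above the highest intact library, mutant mouse 3 at 33.6%. The share was described and not tested. It is not independent of the Chsy1 levels, which already set every injured library above every intact one. Chsy3, the other part of the pair, differed with injury by -0.05 ± 0.25 in mutants and -0.19 ± 0.29 among wild-type mice (SE). The separation of the shares therefore mainly restates the higher Chsy1 levels and is not a further result.

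Of the sulfotransferases, Chst11 (chromosome 10, 82985498 to 83195900, plus strand) gave 165, 172 and 132 TPM in intact wild-type mice and 154, 142, 188 and 174 TPM in intact mutants. Injured wild-type discs were close together at 168, 163, 163 and 171 TPM. Injured mutants gave 215, 107, 236, 214 and 244 TPM, so that 4 of the 5 were above every other library and mouse 2 was below every other library. The difference in mutants was 0.25 ± 0.21 with mouse 2 (SE, adjusted p = 0.344 by limma) and 0.47 without it (adjusted p = 0.005817 by limma), which passed. In the wild type it was 0.10 ± 0.23 (SE, adjusted p = 0.8442 by limma).

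Chst3 (chromosome 10, 60181532 to 60219260, minus strand) is the chondroitin 6-O-sulfotransferase. It had the widest span of the 10 genes, with 8.25 times between its highest library and its lowest, injured mutant mouse 2. By the SD of log2(TPM + 1) over the 16 libraries Chsy1 varied more, at 0.875 against 0.758 for Chst3. Chst3 lay at 77.9, 72.0 and 43.9 TPM in intact wild-type mice and 64.4, 49.6, 106 and 92.5 TPM in intact mutants. Injured wild-type mice gave 87.4, 72.6, 25.8 and 45.7 TPM and injured mutants 44.0, 12.8, 75.1, 83.0 and 77.4 TPM. Mutant mouse 2 and wild-type mouse 3, at the bottom of their groups, were also the libraries with the lowest chondrocyte sums (4944 and 6449 TPM). The injury differences, -0.60 ± 0.54 in mutants (SE, adjusted p = 0.3767 by limma) and -0.26 ± 0.61 in the wild type (SE, adjusted p = 0.8381 by limma), did not pass. Without injured mutant mouse 2 the mutant difference was -0.14, and within the A8 mutants it was -1.21. Without injured wild-type mouse 3 the wild-type difference had the other sign, at 0.08.

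Further sulfotransferases for the same positions were measured beside these. Chst12, a further 4-O-sulfotransferase, fell by 0.92 ± 0.19 with injury in mutants (SE, adjusted p = 0.002131 by limma), its mean being 190 ± 11.6 TPM in intact (SD, n = 4) and 102 ± 25.1 TPM in injured mutants (SD, n = 5). In the wild type it was at -0.55 ± 0.21 (SE, adjusted p = 0.2075 by limma). Chst7, a further 6-O-sulfotransferase, differed by 0.96 ± 0.39 in mutants (SE, adjusted p = 0.05295 by limma) and by -0.21 ± 0.44 in the wild type (SE, adjusted p = 0.8128 by limma). Chst13 stayed at 1.85 TPM or below in every library. The share of Chst11 in Chst11 plus Chst3 leaves out Chst12, which in intact mutants was higher than Chst11 (190 against 165 TPM on average). As a share of Chst11 plus Chst3, Chst11 made up 71.2% ± 3.60 in intact wild-type discs (SD, n = 3) and 68.5% ± 4.68 in intact mutants (SD, n = 4). It made up 75.1% ± 9.38 in injured wild-type discs (SD, n = 4) and 79.2% ± 6.91 in injured mutants (SD, n = 5), with the highest shares in mutant mouse 2 at 89.3% and wild-type mouse 3 at 86.4%.

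**Figure D2:**
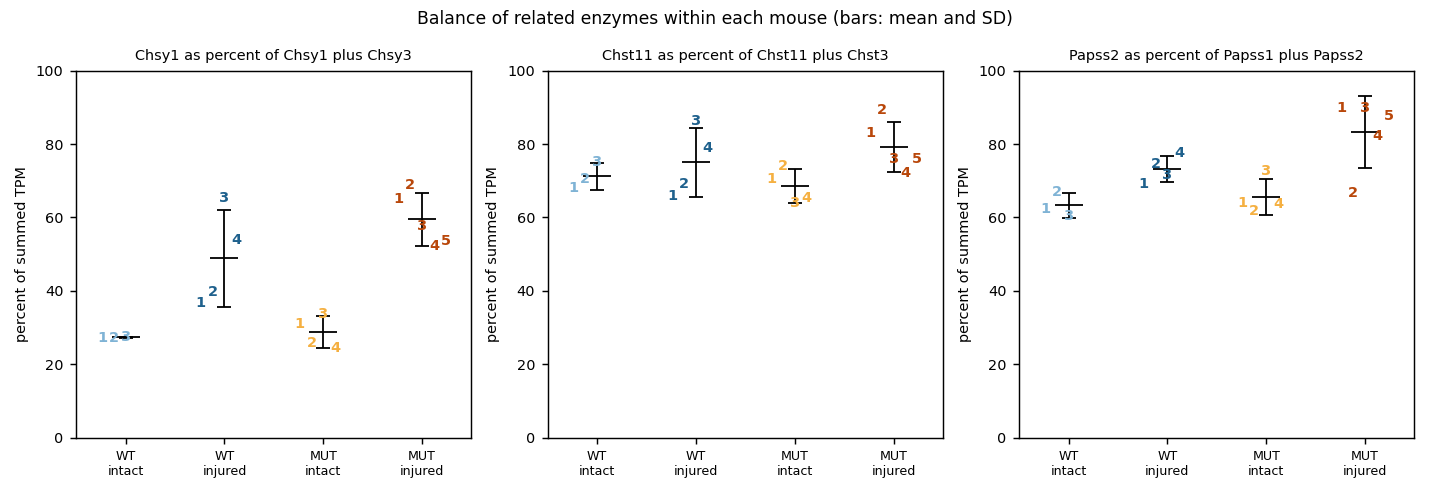
Share in percent (vertical axes, 0 to 100) that 1 gene takes of the summed TPM of 2 related genes, in the 4 groups, with each mouse as a numeral and the group mean and SD as bars. The Chsy1 share is above 36 percent in every injured mouse and below 34 percent in every intact mouse. It is computed from Chsy1 levels that already separate these mice, so it is not a further result. The Chst11 shares of injured and intact mice overlap. The Papss2 share of injured mutant mouse 2, 66.7%, falls among the intact ones.

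Precursor supply held the other gene that passed. Ugdh (chromosome 5, 65413221 to 65435949, minus strand) oxidises UDP-glucose to UDP-glucuronic acid, which chondroitin sulfate, heparan sulfate and hyaluronan all use. It lay at 89.0, 92.0 and 71.1 TPM in intact wild-type mice and 69.9, 70.4, 108 and 84.0 TPM in intact mutants. Injured wild-type mice gave 102, 110.1, 140.1 and 129 TPM, all above the intact wild-type mice, which held for 9.22% of all tested genes. Injured mutants gave 205, 96.2, 247, 203 and 198 TPM, of which mouse 2 lay below intact mutant mouse 3 and the other 4 above every other library. Ugdh rose by 1.14 ± 0.24 in mutants (SE, adjusted p = 0.002461 by limma), and in the wild type the difference was 0.51 ± 0.28 (SE, adjusted p = 0.3192 by limma). The mutant change was 1.17 within the libraries named M (adjusted p = 0.01455 by limma) and 0.99 within those named A8, where it did not pass (adjusted p = 0.05312 by limma). A predicted gene on the same strand, Gm43552, shares exon sequence with Ugdh and reached at most 1.72 TPM.

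Papss2 (chromosome 19, 32595790 to 32667187, plus strand) gave 138, 162 and 111 TPM in intact wild-type mice and 119, 114, 207 and 145 TPM in intact mutants. It gave 179, 213, 125 and 220.4 TPM in injured wild-type mice and 381, 86.0, 327, 283 and 376 TPM in injured mutants. Mutant mouse 2 was the lowest of all 16 libraries, while the other 4 injured mutants were the 4 highest. The difference in mutants was 0.86 ± 0.40 with mouse 2 (SE, adjusted p = 0.08647 by limma), which did not pass, and 1.25 without it (adjusted p = 0.001502 by limma), which did. In the wild type it was 0.41 ± 0.45 (SE, adjusted p = 0.6255 by limma). The isoenzyme Papss1 fell by 0.66 ± 0.16 in mutants (SE, adjusted p = 0.005463 by limma), its mean being 74.5 ± 7.00 TPM in intact (SD, n = 4) and 47.4 ± 9.68 TPM in injured mutants (SD, n = 5). Papss2 made up 65.6% ± 4.87 of the summed TPM of the pair in intact mutants (SD, n = 4) and 83.3% ± 9.77 in injured mutants (SD, n = 5), against 63.3% ± 3.38 (SD, n = 3) and 73.2% ± 3.63 (SD, n = 4) in the wild type.

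Slc26a2 (chromosome 18, 61192919 to 61211612, minus strand), the sulfate transporter of chondrocytes, ranged from 54.9 to 89.3 TPM in intact wild-type and from 40.4 to 90.5 TPM in intact mutant discs. Injured wild-type mice gave 103, 102, 42.4 and 62.6 TPM and injured mutants 57.5, 31.2, 40.8, 69.9 and 60.7 TPM. Injured wild-type mice 1 and 2 were the 2 highest libraries of all. The difference was -0.22 ± 0.35 in mutants (SE, adjusted p = 0.6388 by limma) and 0.01 ± 0.39 in the wild type (SE, adjusted p = 0.9954 by limma), where the sign turned with the scaling. The related transporter Slc26a1 fell by 0.77 ± 0.16 in mutants (SE, adjusted p = 0.003895 by limma), its mean being 14.6 ± 0.671 TPM in intact (SD, n = 4) and 8.18 ± 1.24 TPM in injured mutants (SD, n = 5).

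**Figure D3:**
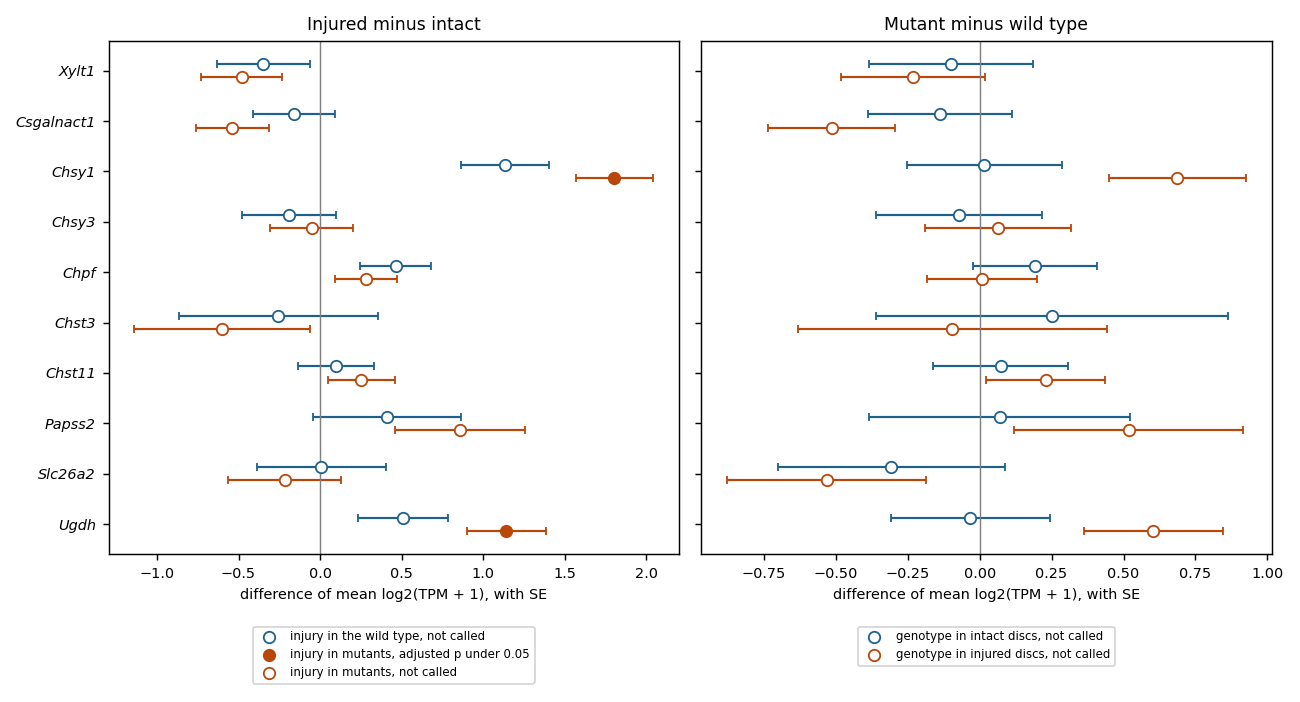
Differences of mean log2(TPM + 1) with their standard errors (horizontal axes) for the 10 genes, injured minus intact on the left and mutant minus wild type on the right. Filled points passed an adjusted p of 0.05, and only Chsy1 at 1.80 and Ugdh at 1.14 in mutants are filled.

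The genotypes were compared in the same fit, and these comparisons share their libraries with those of injury. In intact discs 0 of 10 genes passed by limma, where 0.0165% of all genes were called, and 0 had an unadjusted p under 0.05, against 3.78% of all genes. The 10 differences ran from -0.31 ± 0.39 for Slc26a2 to 0.25 ± 0.61 for Chst3 (SE). Between them lay Csgalnact1 at -0.14, Xylt1 at -0.10, Chsy3 at -0.072, Ugdh at -0.032, Chsy1 at 0.016, Papss2 at 0.070, Chst11 at 0.074 and Chpf at 0.19. In injured discs 0 of 10 passed by limma, where 0.918% of all genes were called, and 3 had an unadjusted p under 0.05, against 20.3% of all genes. The 3 were Chsy1 at 0.69 ± 0.24 (SE, adjusted p = 0.1126 by limma), Ugdh at 0.60 ± 0.24 (SE, adjusted p = 0.155 by limma) and Csgalnact1 at -0.51 ± 0.22 (SE, adjusted p = 0.1794 by limma). The other 7 were Slc26a2 at -0.53, Xylt1 at -0.23, Chst3 at -0.095, Chpf at 0.0090, Chsy3 at 0.065, Chst11 at 0.23 and Papss2 at 0.52. Single libraries decided several calls. Without injured mutant mouse 2, Ugdh at 0.83, Papss2 at 0.91 and Chst11 at 0.44 passed (adjusted p of 0.01439, 0.03688 and 0.0385 by limma), and without injured wild-type mouse 3, Chsy1 at 0.88 passed (adjusted p = 0.02367 by limma).

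Whether the injury response itself differed between the genotypes was tested as an interaction. None of the 10 genes passed by limma, where 0% of all tested genes were called, and 0 had an unadjusted p under 0.05, against 8.18% of all genes. The difference of the responses was 0.67 ± 0.36 for Chsy1 (SE, adjusted p = 0.6275 by limma) and 0.64 ± 0.37 for Ugdh (SE, adjusted p = 0.6455 by limma). For the other 8 it was -0.38 for Csgalnact1, -0.35 for Chst3, -0.22 for Slc26a2, -0.18 for Chpf, -0.13 for Xylt1, 0.14 for Chsy3, 0.16 for Chst11 and 0.45 for Papss2. With a median standard error of 0.37 over the 10 genes, an interaction of this size could not be told from 0. So the passing of Chsy1 and Ugdh in mutants alone does not show that their response differed from that in the wild type.

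Across the libraries the 10 genes differed in the size and direction of their deviations. Each gene was centred on its own mean of log2(TPM + 1), and likeness was taken as the root mean square difference over the 16 libraries, as a description. Chsy3 and Chst11 were each other's nearest at 0.24, and Ugdh and Papss2 at 0.34. Chsy1 was nearest to Ugdh, at 0.40, and farthest from Chst3, at 1.27. This measure also depends on how much each gene varies, so genes that vary little lie close together. The SD over the 16 libraries was 0.345 for Chsy3, 0.304 for Chst11 and 0.875 for Chsy1. Among 11936 genes averaging 5 TPM or more, the nearest to Chsy1 was Txn1, encoding thioredoxin, at 0.21, and the nearest to Ugdh was Dbi at 0.16. The nearest to Xylt1 was Ggact at 0.12, that to Chst3 was Smoc1 at 0.24, and that to Papss2 was Ss18l2 at 0.23. The map of deviations shows that injured mutant mouse 2 differed from the intact mean by -2.35 in Chst3, -1.20 in Xylt1 and -1.07 in Chsy3, but by 1.39 in Chsy1. Injured wild-type mouse 3 had the same order in these genes, with -1.39 in Chst3, -0.91 in Xylt1, -0.53 in Chsy3 and 1.70 in Chsy1. The order was not the same over all 10 genes. Slc26a2 lay below Chsy3 in wild-type mouse 3, at -0.58, and above it in mutant mouse 2, at -1.01. These 2 mice also had the 2 highest macrophage sums, 2678 and 1538 TPM.

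**Figure D4:**
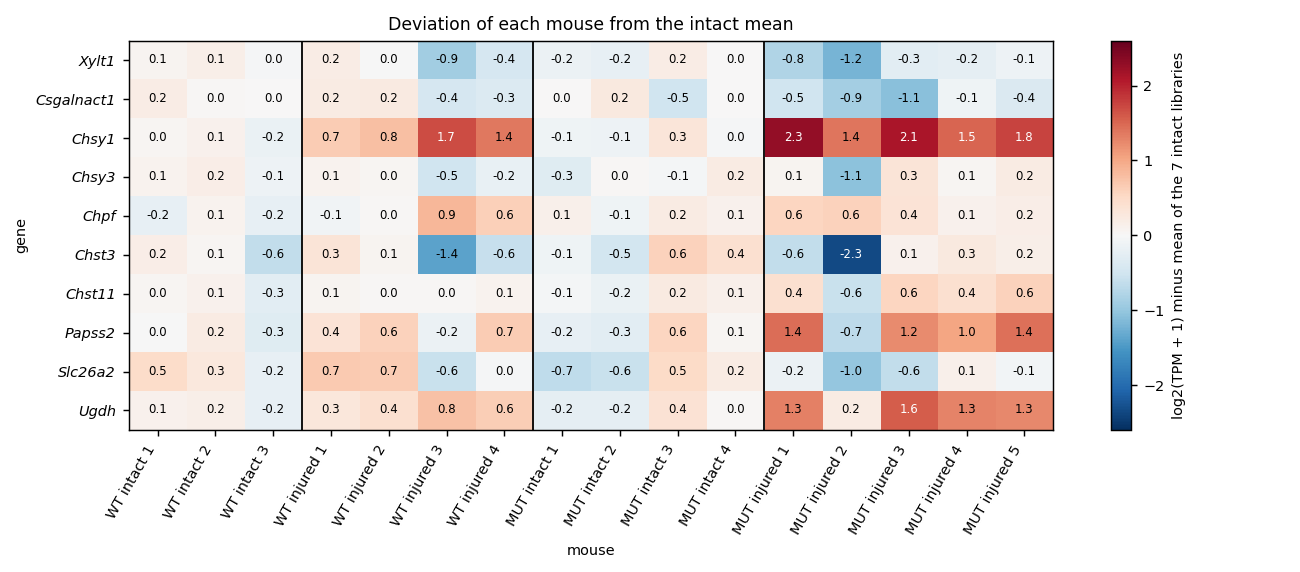
Deviation of log2(TPM + 1) from the mean of the 7 intact libraries (colour and printed value) for the 10 genes (rows) in the 16 mice (columns), with lines between the groups. The Chsy1 row is positive in all 9 injured mice, and the Chst3 row is lowest in mutant mouse 2 at -2.35 and wild-type mouse 3 at -1.39.

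The sum of the 10 genes was 1397 ± 144 TPM in intact wild-type (SD, n = 3), 1371 ± 192 in intact mutant (SD, n = 4), 1418 ± 218 in injured wild-type (SD, n = 4) and 1548 ± 406 TPM in injured mutant discs (SD, n = 5). Injured mutant mouse 2 was at 835 TPM and the other 4 injured mutants at 1633 to 1833 TPM, above the intact range of 1207 to 1608 TPM. Without Xylt1 the sum was 803 ± 109 TPM in intact wild-type (SD, n = 3), 812 ± 119 in intact mutant (SD, n = 4), 931 ± 70.8 in injured wild-type (SD, n = 4) and 1136 ± 310.5 TPM in injured mutant discs (SD, n = 5). There mouse 2 was at 587 TPM and the other 4 at 1193 to 1309 TPM, above every library of the other groups (at most 990 TPM). The sums were described and not tested, and no share over all genes was computed beside them. Only the sum of all 10 was planned. Leaving out Xylt1, the highest gene and one lower on average in injured mutants, widened the gap between these 4 mutants and the rest. Xylt1 averaged 558 TPM in intact and 412 TPM in injured mutants, and with it in the sum injured wild-type mouse 1 reached 1612 TPM. Both sums leave out the isoenzymes, of which Chst12, Papss1 and Slc26a1 were called lower in injured mutants and the others were not called. Acan, the main core protein that carries the chains, was at 6269 ± 466 TPM in intact (SD, n = 4) and 5478 ± 1979 TPM in injured mutants (SD, n = 5), a difference of -0.29 ± 0.31 (SE, adjusted p = 0.563 by limma).

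The rest of the glycosaminoglycan route was read from lists of 86 other genes, of which 76 were tested. In mutants 17 of the 76 were higher and 16 lower in injured discs, with a median change of 0.03, against 13.1% higher and 17.7% lower over all tested genes. Among wild-type mice 0 passed (24 at an unadjusted p under 0.05, against 17.2% of all genes), and between genotypes 0 passed in intact discs (1 unadjusted, against 3.78%), in injured discs (25 unadjusted, against 20.3%) and in the interaction (9 unadjusted, against 8.18%), all by limma. The largest rises in mutants were those of Cemip, a hyaluronan-degrading protein, by 1.73 ± 0.25 (SE, adjusted p = 0.0006454 by limma), of B3gnt7, of keratan sulfate synthesis, by 1.72 ± 0.36 (SE, adjusted p = 0.003195 by limma), and of the proteoglycan Epyc by 1.64 ± 0.63 (SE, adjusted p = 0.04588 by limma). B3gnt7 and Epyc were low, at 2.99 ± 1.34 and 3.79 ± 1.80 TPM in injured mutants (SD, n = 5). The largest falls were those of Hs3st3a1 at -2.48 ± 0.45 (SE, adjusted p = 0.001027 by limma) and Hs3st1 at -1.70 ± 0.40 (SE, adjusted p = 0.004033 by limma), both heparan sulfate 3-O-sulfotransferases, and of the sulfotransferase Chst5, of the keratan sulfate list, at -2.27 ± 0.37 (SE, adjusted p = 0.0006955 by limma).

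By step, each count stands beside the same 13.1% higher and 17.7% lower over all genes and was not tested against them. The linkage region had 1 of 6 higher and 2 lower in injured mutants, with a median of 0.03. Named after their values were seen, these were B4galt7, a galactosyltransferase, at 0.64 ± 0.14, and Fam20b, the xylose kinase, at -0.43 ± 0.14 and Pxylp1, the xylose phosphatase, at -0.68 ± 0.12 (SE, adjusted p of 0.004437, 0.0304 and 0.001617 by limma). Of the other sulfation and epimerization genes 0 of 8 were higher and 1 was lower, and of the 2 other polymerization genes neither passed. Of the other precursor genes 4 of 16 were higher and 2 lower, the latter being Papss1 and Slc26a1. Of the higher ones, 3 that make UDP-sugars or their precursors, named after their values were seen, were Gfpt2 at 0.80 ± 0.23, Uap1 at 0.76 ± 0.19 and Ugp2 at 0.50 ± 0.14 (SE, adjusted p of 0.01302, 0.006763 and 0.01276 by limma). They do not stand for that role as a whole. Uxs1, Gfpt1 and Gnpnat1, also of that role, averaged 35.7, 60.1 and 35.8 TPM in intact mutants. In injured mutants they averaged 37.1, 69.9 and 41.4 TPM. Heparan sulfate genes had 2 of 15 tested higher and 7 lower, and keratan sulfate genes 3 of 7 higher and 1 lower. Of the hyaluronan synthases, which also use UDP-glucuronic acid, 2 of 3 were higher. Has2 rose by 0.74 ± 0.22 in mutants (SE, adjusted p = 0.01586 by limma) and was at 0.51 ± 0.25 in the wild type (SE, adjusted p = 0.2888 by limma). Core proteins had 3 of 8 tested higher and 1 lower, and degradation genes 2 of 11 higher and 2 lower.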

How the data were processed

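Transcript levels in TPM, computed by the authors, were taken from 1 deposited table in which every mouse has its own column. Gene names stand beside the Ensembl identifiers, and the TPM of every mouse sum to 1000000 over 49315 genes. GRCm38 and bcl2fastq 2.20 are named in the submitters' processing notes. The aligner, counter, annotation and use of strand are not given in the sources used here. Per the labels' protocols, total RNA was depleted of ribosomal RNA before library preparation.

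Groups and mouse numbers came from the titles. Positions came from GENCODE M21 on GRCm38 (99.5% of identifiers matched). Reads implied by the TPM values and union exon lengths ranged from 10204068 to 24836465 per library, with at least 283 for each of the 10 genes, and are approximations: 94.1% to 95.0% of values under 20 implied reads lay within 0.05 of a whole number.

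Log2(TPM + 1) was fitted by lmFit and eBayes with a trend (limma 3.58.1, R 4.3.3). The fit took 24188 genes at or above 1 TPM in 3 or more libraries, with all 16 libraries in 1 fit and 5 contrasts. Errors of changes are ordinary standard errors of the fit. On simulated data for injury in mutants, with 200 changed genes among 24188, 71% of log2 changes of 1 and 95% of those of 2 were recovered, with 12 false calls. Shares and likeness were computed in Python 3.11.15. The alternatives were another pseudocount, no or a stricter filter, 2 scalings, sample weights, only the groups compared, a replicate block, mutants of 1 naming style, and each mouse left out. The members and lists were chosen with earlier results of these data known. The rule for named genes took all 10 members in each contrast, their isoenzymes, Acan, Has2 and the 3 largest called rises and falls of the other lists. Isoenzymes, Acan and Has2 are given for injury only. The values of 1 gene of the precursor list are not reported here.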

Additional observations from a re-analysis of the deposited data

Results flagged for a closer look

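Injured mutant mouse 2 lay apart from the other 4 injured mutants in 4 of the 45 sets of values checked for a sample far from the rest (groups of 4 or 5 mice, where chance gives about 1 in 20). Chsy3 was 40.4 TPM there, against 89.5 in the next lowest mouse. Chst11 was 107 TPM, against 214. The sum of the 10 genes was 835 TPM, against 1633, and without Xylt1 it was 587 TPM, against 1193. The 4 values share a library and overlap in the genes they sum.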

How the results depend on the processing

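Of 470 member changes under the alternatives, 432 kept their direction and side of the threshold, 1 lost its call, 7 gained one and 30 uncalled changes turned sign. Not all of these were small: Chst3 between genotypes in injured discs went from -0.095 to 0.57 within M mutants. With each mouse left out, 759 of 800 kept both, 9 gained a call and 32 turned sign. Chsy1 in mutants passed under all 10 alternatives (1.65 to 1.96) and every mouse left out (1.69 to 1.91). Ugdh in mutants lost its call within the A8 mutants alone (0.99, adjusted p = 0.05312 by limma) and passed in the others run (leaving out mice, 1.03 to 1.37). Reasons for these shifts were not tested, and some fits also held fewer mice.

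Counts of called genes moved as follows. Injury in the wild type called 28, and 64 with a pseudocount of 0.1, 11 with no filter, 17 with median-of-ratios scaling, 77 with sample weights and 4 with only the groups compared. Injury in mutants called 7438, and 725 within M mutants and 3583 within A8 mutants; its members went from 2 to 4 with sample weights, which added Csgalnact1 (-0.54, adjusted p = 0.03668 by limma) and Papss2 (1.09, adjusted p = 0.006904 by limma). Genotype in intact discs called 4, and 8 with sample weights, 2 within M and 8 within A8 mutants. Genotype in injured discs called 222, and 86 with no filter, 93 with quantile normalization, 1070 with sample weights, 5 with only the groups compared and 2 within A8 mutants; its members went from 0 to 2 with sample weights (Chsy1 and Ugdh) and to 1 within M mutants (Ugdh). The interaction called 0, and 4 with sample weights. The share of higher calls for injury in mutants was 42.6%, and 52.1% with median-of-ratios scaling; in injured discs between genotypes it was 20.7%, 47.5% with that scaling and 34.4% with quantile normalization; for injury in the wild type it was 92.9%, and 77.1% with quantile normalization.

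No pairing of mice by the numbers that groups share was seen, though groups of 3 to 5 mice cannot exclude it. Over 21 same-numbered pairs the correlation of deviations ran from -0.22 to 0.15, and 1 exceeded 0.1. Of 28 comparisons 6 were best with the own number, and the share given by chance was not computed. With the number as a replicate block, injury in the wild type called 5 genes, genotype in intact discs 2 and in injured discs 11; Csgalnact1 passed for injury in mutants (-0.59, adjusted p = 0.04022 by limma). Under the block Slc26a2 turned to -0.068 for injury in the wild type and Chsy3 to -0.0089 between genotypes in injured discs.

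Leaving out 1 mouse gave 2 to 452 called genes and 0 to 1 members for injury in the wild type, 5332 to 7985 and 2 to 4 for injury in mutants, 1 to 7 and 0 for genotype in intact discs, 7 to 2253 and 0 to 3 for genotype in injured discs, and 0 to 15 and 0 for the interaction.

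Signs turned elsewhere as follows. With median-of-ratios scaling, Slc26a2 was -0.0018 for injury in the wild type, Chsy3 0.038 for injury in mutants and Chst3 0.013 between genotypes in injured discs. With sample weights, Chsy3 was 0.056 for injury in mutants, Chsy1 -0.037 and Papss2 -0.0031 between genotypes in intact discs, and Chst3 0.027 in injured discs. Within M mutants, Chsy3 was 0.11 for injury; Xylt1 0.049, Chsy3 0.044, Slc26a2 0.18 and Ugdh 0.18 between genotypes in intact discs; Xylt1 0.080, Chpf -0.14 and Chst3 0.57 in injured discs; and Xylt1 0.031 in the interaction. Within A8 mutants, Slc26a2 was 0.038 for injury; Csgalnact1 0.050, Chsy1 -0.12, Chst3 -0.15, Chst11 -0.071 and Papss2 -0.21 between genotypes in intact discs; Chsy3 -0.36 and Chst11 -0.13 in injured discs; and Chsy3 -0.17, Chpf 0.11, Chst11 -0.059 and Slc26a2 0.030 in the interaction.

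Ranges over the mice left out, where a sign turned, were as follows. For injury in the wild type, Chst3 ran from -0.51 to 0.076, Chst11 from -0.018 to 0.17 and Slc26a2 from -0.19 to 0.26; for injury in mutants, Chsy3 from -0.15 to 0.20. Between genotypes in intact discs, Csgalnact1 ran from -0.24 to 0.013, Chsy1 from -0.088 to 0.072, Chsy3 from -0.16 to 0.024, Chst3 from -0.0020 to 0.44, Chst11 from -0.042 to 0.15, Papss2 from -0.11 to 0.20 and Ugdh from -0.16 to 0.042. In injured discs, Chsy3 ran from -0.061 to 0.31, Chpf from -0.14 to 0.18 and Chst3 from -0.43 to 0.37. In the interaction, Xylt1 ran from -0.34 to 0.035 and Chst3 from -0.68 to 0.12. Only the groups compared gave no interaction, and the M or A8 fits no wild-type injury.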
